A study of Komagataella pastoris with 15 samples.

Results

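GTH1 (PAS_chr1-3_0011) and HXT1 (PAS_chr1-4_0570) are hexose transporter genes of the methylotrophic yeast Pichia pastoris, and their transcripts were followed here through 5 phases of a fermentation fed with glycerol and then methanol. They were chosen by locus tag and are 2 of the 5039 tags on the array, each measured by a single probe printed in 3 spots. GTH1 was taken as a high-affinity glucose transporter derepressed by carbon limitation, and HXT1 as a low-affinity hexose transporter. These names and roles come from the choice of the pair, since the scanner files give tags alone and the reference gene table matched 0 of the 5039 tags.

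Hexose transporters are membrane proteins that carry glucose and related sugars into the cell. Yeasts commonly hold low-affinity carriers, used while sugar is plentiful, beside high-affinity carriers whose genes are repressed by plentiful carbon and released from repression when carbon runs short. In P. pastoris the GTH1 promoter is known as one that can be switched on by limiting the carbon feed, which has made it a tool for producing recombinant proteins without methanol.

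The cultures produced recombinant human serum albumin (rhHSA) in fermentors of 40 L, numbered 1 to 3, and total RNA of each fermentor at each phase was labelled with Cy3 and hybridised to its own Agilent array, 15 arrays in all. Sampling covered logarithmic growth, cells starved of carbon for 40 min once glycerol feeding had stopped and before methanol was fed, growth with methanol as the sole carbon source, the peak of the rhHSA expression rate, and the end of fermentation, when rhHSA had fallen to 220 mg/L. The labels call the organism Komagataella pastoris, name no strain, genotype or control culture without the product, give no carbon source for logarithmic growth and mention no hexose feed. Each phase is therefore compared with the other phases of the same production process. In such cultures fewer expressing cells and less RNA per expressing cell cannot be told apart.

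The arrays were read in 2 scans. Of these, 7 arrays were on scan 1 (the whole end of fermentation group, and fermentor 1 in each earlier phase) and 8 on scan 2. Arrays of a phase correlated across tags at r from 0.988 to 0.999 within a scan and from 0.943 to 0.961 between scans, so the main fits carried the scan as a block. In logarithmic growth, spot noise did not tell arrays 2 and 3 apart: only 2.36% of tags exceeded that noise, where other same-scan pairs had 6.87% to 56.1%. They were counted as 1 sample, which left 14 samples in the fit and n = 2 for that phase. The arrays labelled as the rhHSA peak resembled logarithmic growth across all tags (r = 0.977 between scan-balanced means) more than methanol-adapted cells (r = 0.918) or the end of fermentation (r = 0.899), so values for this phase are those of the arrays so labelled. Leaving them out of the fit moved none of the 12 other changes of the 2 transporters by more than 0.0205 log2 units, and all 12 kept their call. Each phase has its own term in the fit, so these changes could move only through the shared scan term. The small shifts therefore do not bear on the labels.

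Both transporters were read above background on every array. All 45 spots of GTH1 and all 45 of HXT1 were well above background and none was saturated. Most tags shared this: with at least 2 of 3 spots, 98.67% to 99.96% of all tags were well above background on an array. At most 8 spots of an array were saturated. The mean processed intensity of GTH1, in arbitrary scanner units, ran from 3110 in logarithmic growth array 3 to 198098 in methanol array 1. That of HXT1 ran from 15404 in end of glycerol feeding array 2 to 653861 in end of fermentation array 3. At the end of fermentation the brightest HXT1 spot of each array had a median pixel value at 80.0%, 75.1% and 89.2% of the scanner's saturation value, so HXT1 lay close to the top of the measured range there. The scanner software marked 2 GTH1 spots and 6 HXT1 spots as outliers, and these were left out. All 3 HXT1 spots of rhHSA peak array 2 were among them, so HXT1 has no value on that array and the fit drops it there.

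**Figure D1:**
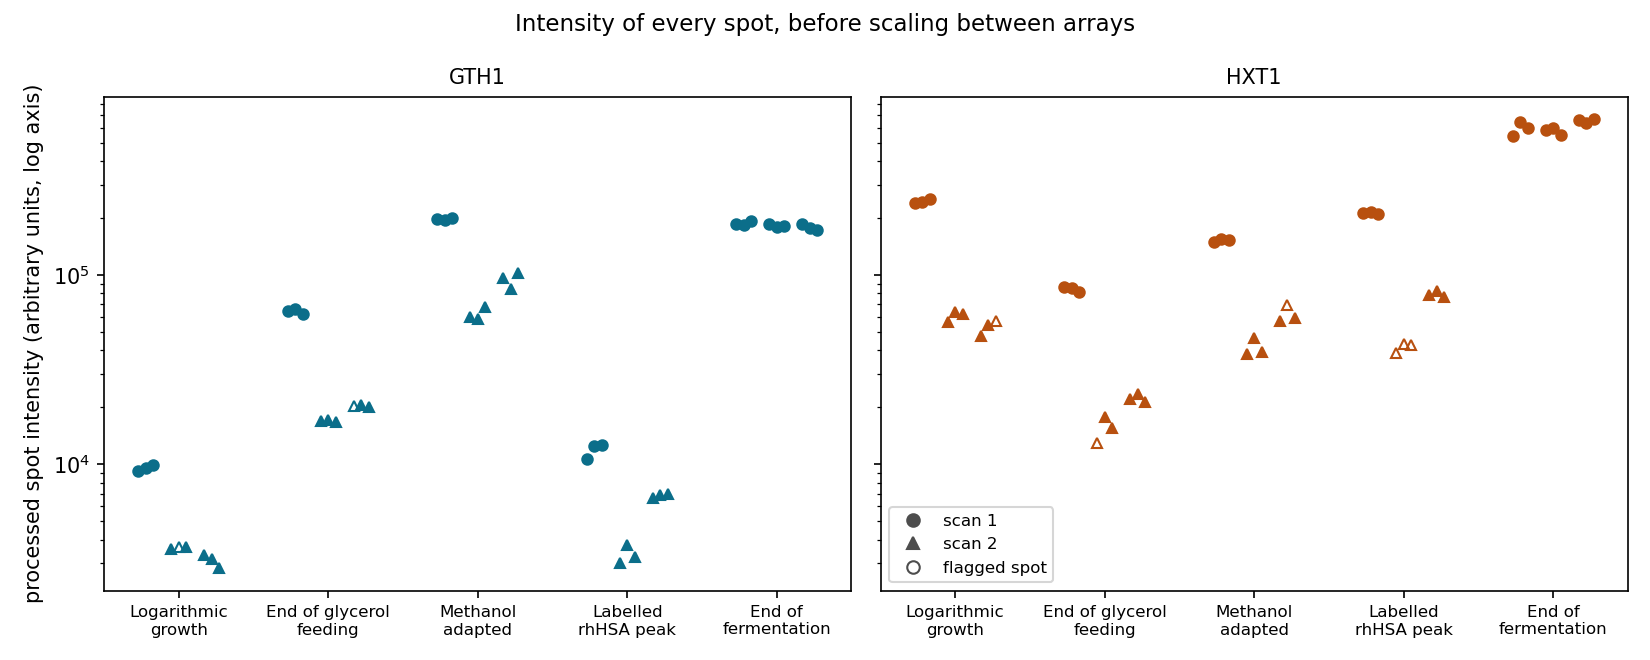
Processed intensity of every spot of GTH1 (left) and HXT1 (right) in arbitrary scanner units on a log axis, by phase; the 3 clusters in a phase are arrays 1 to 3, circles are scan 1, triangles scan 2, and open symbols are flagged spots. Spots of an array lie close together, arrays of scan 2 are dimmer before scaling, and HXT1 at the end of fermentation is brighter than on any other array, with array means from 579776 to 653861.

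Below, a level is a log2 signal counted from its own array's 75th percentile, and a change is a difference between 2 such levels fitted by limma with scan as a block. A change was called when its adjusted p, corrected over all 5024 tags tested, was below 0.05. Both transporters differed among the 5 phases by the moderated F-test (limma adjusted p = 1.09e-10 for GTH1 and 1.68e-06 for HXT1), as did 94.9% of all tags tested. By the size of F, GTH1 stood at rank 4 of the 5024 tags and HXT1 at rank 1793.

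GTH1 was low in logarithmic growth and in the arrays labelled rhHSA peak, and high at the end of glycerol feeding, in methanol and at the end of fermentation. In logarithmic growth its level was -1.90, -1.73 and -1.78 on arrays 1 to 3, a mean of -1.83 ± 0.11 (SD, n = 2). At the end of glycerol feeding it was 1.30, 1.42 and 1.40 (mean 1.37 ± 0.067, SD, n = 3). Arrays 2 and 3 of this phase were nearly alike across all tags (r = 0.997), so n = 3 may overstate the independent samples. No array of the starved cells came within 3.02 log2 units of logarithmic growth. In methanol-adapted cells the level was 2.29, 2.53 and 2.18 (mean 2.33 ± 0.18, SD, n = 3), above every array of the other phases. In the arrays labelled rhHSA peak it was back at -1.61, -1.44 and -1.33 (mean -1.46 ± 0.14, SD, n = 3). The end of fermentation gave 1.97, 1.99 and 1.99 (mean 1.99 ± 0.012, SD, n = 3), between the end of glycerol feeding and methanol. For GTH1 the nearest arrays of logarithmic growth and the labelled rhHSA peak were only 0.12 log2 units apart.

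**Figure D2:**
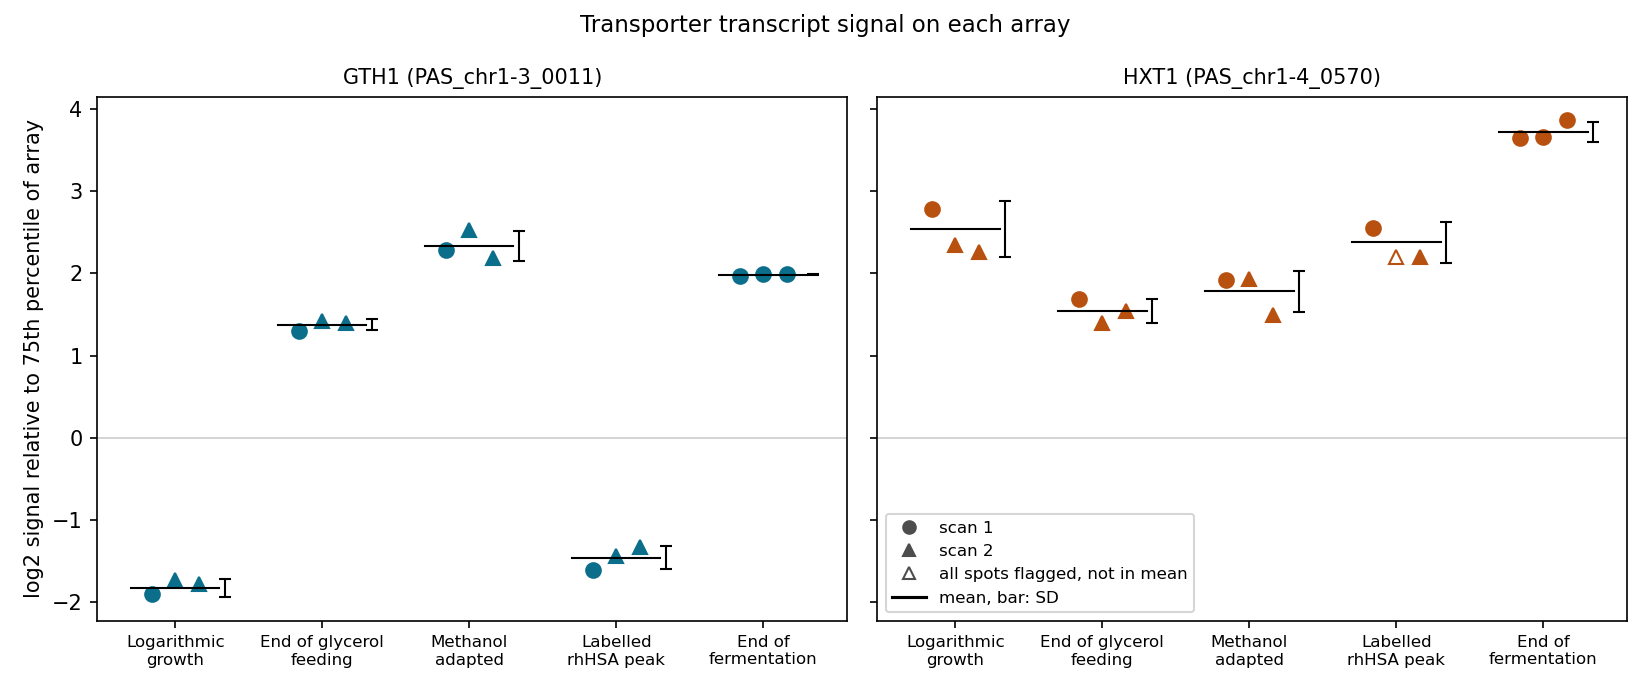
Level of GTH1 (left) and HXT1 (right) on each array in log2 units above or below that array's 75th percentile, by phase; circles are scan 1, triangles scan 2, lines means and bars the SD (n = 2 for logarithmic growth and for HXT1 at the labelled rhHSA peak, n = 3 otherwise). GTH1 alternates between levels of at most -1.33 and of at least 1.30, whereas HXT1 is at 1.39 or above throughout and is highest at the end of fermentation.

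The first step, from logarithmic growth to cells starved at the end of glycerol feeding, raised GTH1, the high-affinity carrier, and lowered HXT1, the low-affinity carrier. GTH1 rose by 3.18 ± 0.092 log2 units (SE), which is 9.06-fold (95% interval 7.87 to 10.4), with a limma adjusted p of 1.56e-09. Its rise was 3.20 in fermentor 1, 3.15 in fermentor 2 and 3.18 in fermentor 3, where the baselines of fermentors 2 and 3 are the near-identical logarithmic growth arrays counted as 1 sample. HXT1 fell by 0.95 log2 units (SE 0.13, 1.94-fold; limma adjusted p = 0.000113), and its change was -1.10, -0.95 and -0.72 in fermentors 1 to 3, over the same baselines. Both genes were thus called in a step that called 66.9% of all tags tested, 33.3% higher and 33.6% lower. A change as large as that of GTH1, in either direction, was seen in 0.338% of the tags tested, and as large as that of HXT1 in 22.2%. On scan 1 GTH1 changed by 3.20 and HXT1 by -1.10, and on scan 2 by 3.17 and -0.83. Scan 2 alone, with 1 logarithmic growth sample, did not call the fall of HXT1 (limma adjusted p = 0.0535).

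HXT1 was detected at a high signal in all phases and moved within a narrower range than GTH1. In logarithmic growth its level was 2.78, 2.35 and 2.26 on arrays 1 to 3 (mean 2.54 ± 0.34, SD, n = 2). At the end of glycerol feeding it was 1.69, 1.39 and 1.54 (mean 1.54 ± 0.15, SD, n = 3), and in methanol 1.92, 1.94 and 1.49 (mean 1.78 ± 0.25, SD, n = 3). The arrays of these last phases overlapped, and both groups lay below every array of logarithmic growth. In the arrays labelled rhHSA peak, HXT1 was at 2.56 on array 1 and 2.20 on array 3 (mean 2.38 ± 0.25, SD, n = 2), so that array 1 lay inside the range of logarithmic growth and array 3 just below it. Array 2, whose spots were all flagged, would have read 2.20. At the end of fermentation HXT1 was at 3.64, 3.66 and 3.86 (mean 3.72 ± 0.12, SD, n = 3), above all other arrays. In the first 4 phases the SDs of both genes include the difference between scans. Scan 2 minus scan 1 was 0.14 log2 units for GTH1 and -0.30 for HXT1. In those phases scan 1 held fermentor 1 alone, so this difference may also hold one between fermentors. The 3 arrays of the end of fermentation were nearly alike across all tags (6.87% to 9.36% of tags beyond spot noise), so their small SD may hold little spread between cultures. Arrays 2 and 3 of the end of glycerol feeding fell within the same range of percentages, so the same limit holds for that pair.

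When the methanol feed replaced starvation, GTH1 rose further and HXT1 showed no called change. GTH1 rose by 0.96 ± 0.082 (SE), or 1.94-fold (limma adjusted p = 3.21e-06), and was higher in all 3 fermentors, by 0.99, 1.11 and 0.78. The step called 61.7% of all tags tested, 22.3% higher and 39.4% lower. A change as large as that of GTH1 was seen in 9.67% of tags, and as large as that of HXT1 in 65.5%. HXT1 differed by 0.24 ± 0.12 (SE; limma adjusted p = 0.0979), with a 95% interval from -0.02 to 0.50. Its change was 0.23 in fermentor 1, 0.54 in fermentor 2 and -0.05 in fermentor 3. This call turned with the processing. The change was called with quantile normalization (0.39, limma adjusted p = 0.00266), without methanol array 3 (0.34, limma adjusted p = 0.0283) and with flagged spots kept (0.31, limma adjusted p = 0.0285). Without methanol array 2 it shrank to 0.11 (limma adjusted p = 0.347). Within scan 1 the changes were 0.99 for GTH1 and 0.23 for HXT1, and within scan 2 they were 0.94 and 0.25.

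Methanol-adapted cells were also set directly against logarithmic growth, using arrays that already entered the first 2 steps. GTH1 was higher by 4.14 ± 0.092 (SE), or 17.6-fold (95% interval 15.3 to 20.3; limma adjusted p = 7.80e-10), the scans giving 4.19 (scan 1) and 4.11 (scan 2). Of the tags tested, 0.139% differed by as much. HXT1 was lower, at -0.71 ± 0.13 (SE; 1.64-fold; limma adjusted p = 0.000673), the scans giving -0.87 (scan 1) and -0.59 (scan 2). A difference as large as that of HXT1 was seen in 47.5% of the tags. Of all tags tested 75.4% were called, 33% higher and 42.4% lower. On scan 2 alone the difference of HXT1 was not called (limma adjusted p = 0.101).

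From methanol to the arrays labelled rhHSA peak GTH1 fell steeply while HXT1 rose. GTH1 fell by 3.79 log2 units (SE 0.082, 13.9-fold, 95% interval 12.2 to 15.7; limma adjusted p = 2.15e-10). The fermentors gave -3.90, -3.97 and -3.51. HXT1 rose by 0.55 ± 0.13 (SE), or 1.46-fold (limma adjusted p = 0.00363), in a fit without the flagged array 2. Its rise was 0.64 in fermentor 1 and 0.71 in fermentor 3. With flagged spots kept, it was 0.64, 0.26 and 0.63 in fermentors 1 to 3. The step called 73.4% of all tags tested, 39.8% higher and 33.6% lower, and 0.179% of tags changed by as much as GTH1, against 52.3% for HXT1. Within scan 1 the changes were -3.90 for GTH1 and 0.64 for HXT1, and within scan 2 they were -3.74 and 0.49. The rise of HXT1 was not called on scan 2 alone (limma adjusted p = 0.152), where the labelled peak had 1 array with a value.

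Set against logarithmic growth, the arrays labelled rhHSA peak differed little in either transporter. GTH1 was higher by 0.34 ± 0.092 (SE), or 1.27-fold (limma adjusted p = 0.00953), the scans giving 0.29 (scan 1) and 0.37 (scan 2). Here 50.8% of all tags were called, 23.9% higher and 26.9% lower, and 48.5% differed by at least as much as GTH1. Without the scan block the same difference was 0.37 and was not called (limma adjusted p = 0.0797). Nor was it called without logarithmic growth array 1 (0.34, limma adjusted p = 0.0552). For HXT1 the difference was -0.16 ± 0.14 (SE; limma adjusted p = 0.369), with a 95% interval from -0.48 to 0.16, and it was -0.05 without logarithmic growth array 1 (limma adjusted p = 0.863). Against the starved cells, the labelled peak was lower in GTH1 by -2.84 ± 0.082 (SE; limma adjusted p = 1.90e-09) and higher in HXT1 by 0.79 ± 0.13 (SE; limma adjusted p = 0.000422), where 67.1% of all tags were called, 31.5% higher and 35.5% lower. On scan 1 these changes were -2.91 and 0.87, and on scan 2 they were -2.80 and 0.74, the latter not called on scan 2 alone (limma adjusted p = 0.0679).

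The last step, from the labelled rhHSA peak to the end of fermentation, was a rise of both transporters. GTH1 rose by 3.54 ± 0.092 (SE), or 11.6-fold (95% interval 10.1 to 13.4; limma adjusted p = 2.23e-10), and HXT1 by 1.19 ± 0.14 (SE), or 2.29-fold (95% interval 1.84 to 2.84; limma adjusted p = 2.27e-05). The step called 76% of all tags tested, with 30.5% higher and 45.5% lower, so both transporters were in the smaller group. A change of that size was seen in 0.677% of tags for GTH1 and in 25.5% for HXT1. On scan 1 alone, where the labelled peak had a single array, the changes were 3.60 for GTH1 and 1.17 for HXT1.

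The end of fermentation held the highest HXT1 signal of the process and a GTH1 signal near that of methanol-adapted cells. HXT1 was 1.03 ± 0.14 (SE) above logarithmic growth (2.04-fold; limma adjusted p = 8.11e-05), 1.98 ± 0.13 above the starved cells (3.96-fold; limma adjusted p = 4.44e-07) and 1.74 ± 0.13 above methanol-adapted cells (3.34-fold; limma adjusted p = 1.07e-06). On scan 1 alone these were 0.94, 2.04 and 1.81. GTH1 was 3.88 ± 0.097 (SE) above logarithmic growth (14.8-fold; limma adjusted p = 1.87e-10) and 0.70 ± 0.092 above the starved cells (1.63-fold; limma adjusted p = 3.79e-05). On scan 1 alone these were 3.89 and 0.69. The difference from the starved cells was larger with quantile normalization (1.07, limma adjusted p = 6.20e-07) and in the authors' deposited values with scan as a block (1.07, limma adjusted p = 1.85e-07). Against methanol-adapted cells GTH1 was lower by -0.26 ± 0.092 (SE; 1.19-fold; limma adjusted p = 0.0275), and -0.30 on scan 1 alone. With fermentor and scan both as blocks this difference was -0.27 and not called (limma adjusted p = 0.08), and with quantile normalization it was -0.10 (limma adjusted p = 0.309). Leaving out methanol array 1 (-0.21, limma adjusted p = 0.165) or any single end of fermentation array (limma adjusted p from 0.0551 to 0.0647) also ended the call. Against logarithmic growth, starved cells and methanol, the end of fermentation called 71.3%, 73.7% and 71.5% of all tags. Higher calls made up 26.8%, 28.7% and 33.3% of the tags tested, and lower calls 44.5%, 45% and 38.2%. In the same order, 0.358%, 44.9% and 76.3% of tags differed by as much as GTH1. For HXT1 these shares were 27.5%, 4.46% and 7.7%.

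**Figure D3:**
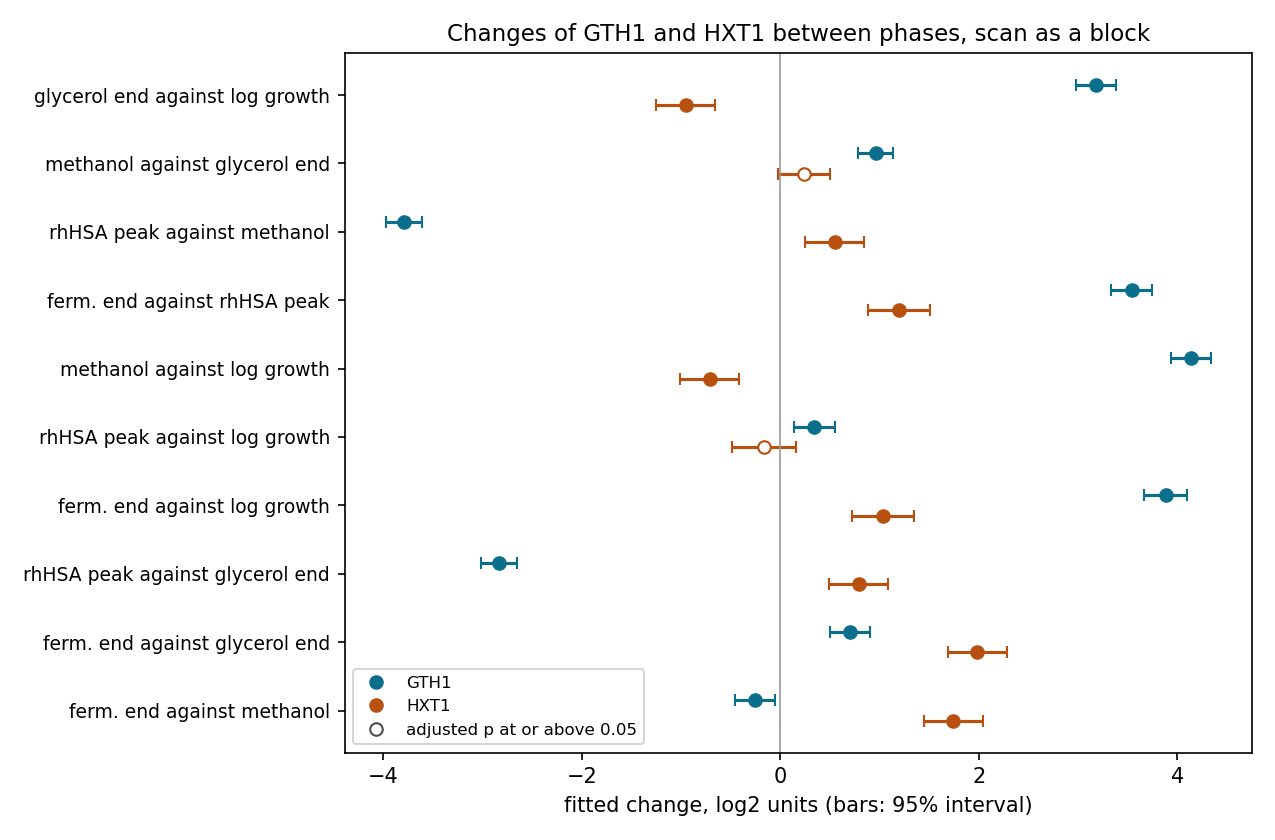
Fitted change of GTH1 and HXT1 in log2 units for each of the 10 pairs of phases, the first named minus the second, with 95% intervals; filled points have an adjusted p below 0.05. GTH1 ranges from -3.79 to 4.14 and HXT1 from -0.95 to 1.98, and the open points are HXT1 for methanol against the end of glycerol feeding and for the labelled peak against logarithmic growth.

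From highest to lowest, the scan-balanced mean levels of GTH1 were 2.31 in methanol, 2.05 at the end of fermentation, 1.35 at the end of glycerol feeding, -1.48 in the labelled rhHSA peak and -1.83 in logarithmic growth. Neighbours in this order were called apart in each case, but the call for methanol over the end of fermentation and that for the labelled peak over logarithmic growth ended under the settings named above. The order of HXT1 was 3.57 at the end of fermentation, 2.54 in logarithmic growth, 2.38 in the labelled peak, 1.83 in methanol and 1.59 at the end of glycerol feeding. Here logarithmic growth was not told apart from the labelled peak, nor methanol from the end of glycerol feeding. From lowest to highest phase GTH1 spanned 4.14 log2 units (17.6-fold) and HXT1 1.98 (3.96-fold), with residual SDs between samples of 0.097 and 0.15.

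The 2 transporters did not follow the same course. The difference between them on each sample varied over the phases by an exact permutation test of phase labels within scans (13 samples, 4 of 151200 arrangements as extreme, p = 2.65e-05, the smallest these arrangements can give). Since 94.9% of all tags tested differed among the phases, a difference in course need not be particular to this pair. Other pairs of tags were not tested. The nearly alike arrays of the end of fermentation and of the end of glycerol feeding entered as separate samples. GTH1 and HXT1 moved in opposite directions at the first step and at the third, where their changes differed by 4.13 ± 0.11 (SE) and by -4.33 ± 0.11 (SE) log2 units. At the last step both rose, GTH1 by 2.33 ± 0.12 (SE) more than HXT1. Against methanol the end of fermentation was higher in HXT1 alone, and the changes differed by -1.99 ± 0.12 (SE). Over the 13 samples with both values, the scan-adjusted levels correlated at r = -0.0052, a description of samples that share arrays, fermentors and scaling.

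After scaling, the median change of all tags exceeded 0.1 log2 units in size in several comparisons, and the transporter changes are given here relative to it. Whether it came from the scaling or from a shift of many transcripts was not tested. Quantile normalization makes the array distributions alike and cannot tell these apart. The median change of all tags was -0.12 from starved to methanol-adapted cells (-0.01 with quantile normalization). Relative to that median GTH1 changed by 1.08 and HXT1 by 0.37. For methanol against logarithmic growth the median was -0.11 (0.03 with quantile normalization), and the changes relative to it were 4.25 and -0.60. At the last step the median was -0.21 (-0.06 with quantile normalization), with 3.75 for GTH1 and 1.41 for HXT1 relative to it. For the end of fermentation against logarithmic growth (median -0.22, and 0.00 with quantile normalization) GTH1 changed by 4.11 and HXT1 by 1.25 relative to it. Against the starved cells (median -0.21, and -0.01 with quantile normalization) they changed by 0.91 and 2.19.

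The authors also deposited processed log2 values for 3915 tags, in which GTH1 is listed and HXT1 is not. In these values GTH1 was at 12.37, 12.53 and 12.48 in logarithmic growth, at 15.76, 15.59 and 15.56 at the end of glycerol feeding and at 16.84, 16.70 and 16.84 in methanol. It was at 12.81, 12.91 and 12.95 in the labelled rhHSA peak and at 16.75, 16.67 and 16.73 at the end of fermentation. The same alternation between low and high phases was thus present in both sets of values. With scan as a block, limma on the authors' deposited values gave a first step of 3.20 ± 0.082 (SE), followed by 1.15 ± 0.073 on entering methanol, -3.90 ± 0.073 towards the labelled peak and 3.82 ± 0.082 to the end. The end of fermentation and methanol were not told apart in them (-0.08 ± 0.082, SE; limma adjusted p = 0.394).

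Tags with the most similar course were sought among 2707 tags that had a value in every sample and a range of at least 1 log2 unit. Closest to GTH1 over 14 samples, after removal of the scan difference, were PAS_chr3_0505 (Pearson r = 0.999) and PAS_chr4_0951 (r = 0.996). PAS_chr3_0505 spanned 2.49 log2 units between phases and PAS_chr4_0951 2.35, both less than the 4.14 of GTH1. Both rose at the first step, by 1.91 ± 0.077 (SE) and by 2.03 ± 0.067 (SE). They were picked for likeness to GTH1 over these same samples, so this rise follows from the choice and is no separate result. Closest to HXT1 over 13 samples were PAS_chr3_0877 (r = 0.982) and PAS_chr4_0006 (r = 0.979), which spanned 1.67 and 1.79 log2 units against 1.98 for HXT1. The reference table matched no tag of the array, so these tags are left without names. These r values describe samples that share arrays and phases, and carry no test.

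**Figure D4:**
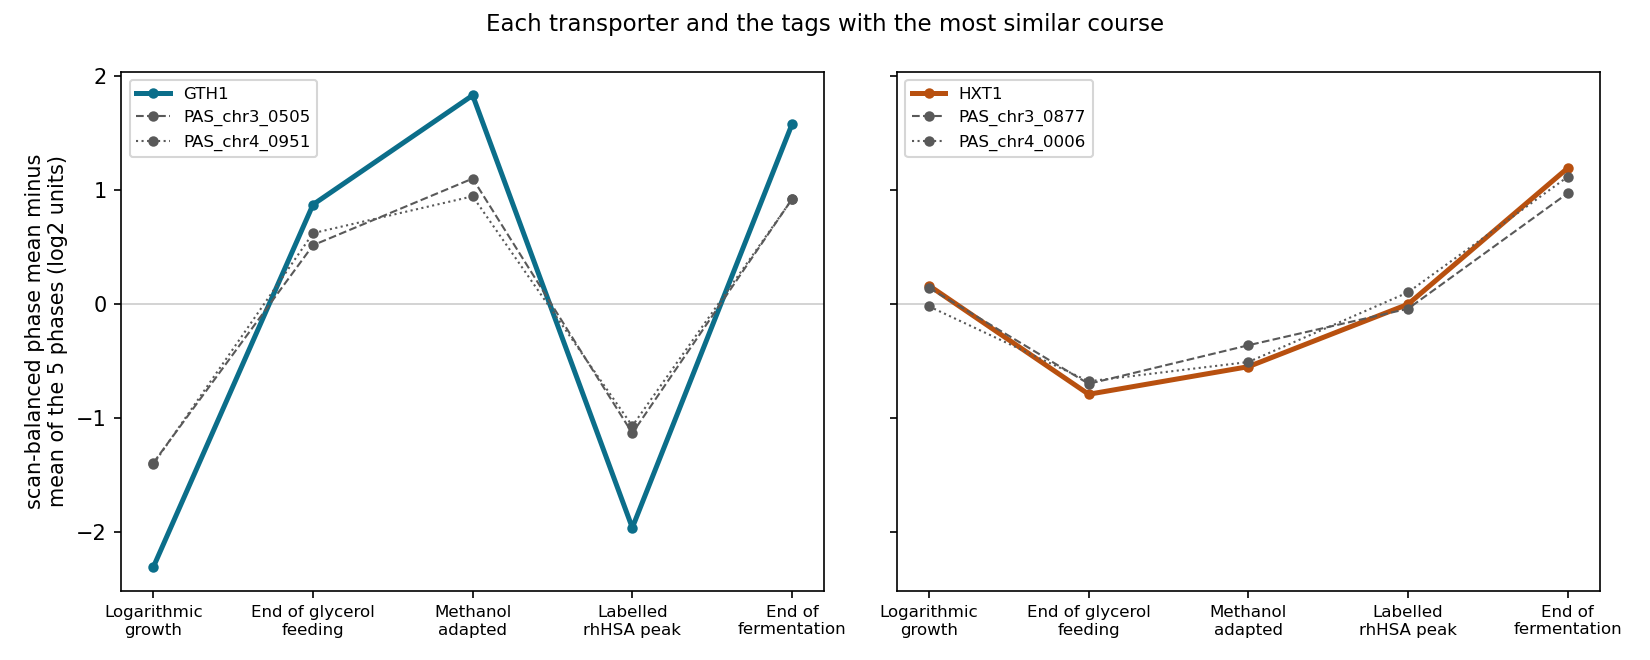
Scan-balanced mean level in each phase minus the mean of the 5 phases, in log2 units, for GTH1 (left) and HXT1 (right) with the 2 tags of most similar course. The GTH1 tags follow the same alternation over smaller ranges, 2.49 and 2.35 against 4.14 log2 units, and the HXT1 tags dip at the end of glycerol feeding and peak at the end of fermentation.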

How the data were processed

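The authors deposited scanner files of spot intensity on a linear scale, made with Agilent Feature Extraction 10.7.3.1 per the file headers (the submitters' processing notes name version 9.1), background-subtracted within each array. Their deposited table of processed log2 values covers 3915 tags. Set against the scanner values of the same array, these columns gave r of 0.983 to 0.988, which fits log2 signal running upward; medians were 12.6 to 12.7 and the centring is unknown.

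Processed signals were turned to log2, the 75th percentile of each array's non-control spots subtracted, and unflagged spots averaged per tag. Probes with at least 2 of 3 spots well above background on all arrays of a phase were tested. limma 3.58.1 in R 4.3.3 (jsonlite 2.0.0) fitted all phases with scan as a fixed block, each comparison as a coefficient of its own design, since contrasts.fit approximates errors where values are missing. Adjustment was by Benjamini-Hochberg. The files hold no mean-signal column, so the normexp alternative (offset 50) used median signals. Procedures were tested on simulated data. Figures used Python 3.11.15 with matplotlib 3.10.9.

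The labels give 1 fermentor number per culture through all phases, so the numbers pair the samples; deviations of same-numbered arrays correlated at r from 0.408 to 0.954 over the first 4 phases, where fermentor 1 coincides with scan 1, and from -0.314 to 0.257 with the end of fermentation. Members and lists were chosen with earlier results of these data known. Named tags were the members, the 2 most similar tags to each, and neighbours by number. No tag carried a description to search, so other sugar uptake genes could not be picked out and that list was not analysed. The number of arrays limits the precision, and p-values measure the spread between these arrays.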

Additional observations from a re-analysis of the deposited data

How the results depend on the processing

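The 23 results on the transporters were recomputed in 721 combinations of result and alternative, and 696 kept direction and call. None reversed. Many combinations could hardly move the fitted change, so this count overstates how far the results were tested. Leaving out an array of a phase outside a comparison could move the change only through the shared scan term, besides its error. GTH1 from starved to methanol-adapted cells stayed at 0.9587 without any single array of the other phases. It also stayed there with the filter on dim probes dropped or tightened. Calls of GTH1 ended in 2 comparisons. For the end of fermentation minus methanol the call ended with quantile normalization (-0.10), normexp (-0.20), the authors' values with a scan block (-0.0787) or without one (-0.0734), all near-identical arrays averaged (-0.25), the arrays of both phases alone (-0.30), and fermentor as a replicate block with scan (-0.27); without single arrays it ran from -0.33 to -0.20. For the labelled rhHSA peak minus logarithmic growth it ended with no scan block (0.37), on scan 2 alone (0.37) and with the arrays of both phases alone (0.335), and ran from 0.30 to 0.39 without single arrays. The end of fermentation minus starved cells kept its call but grew from 0.70 to 1.07 with quantile normalization, and to 1.07 and 1.08 in the authors' values with and without a scan block. The pairing by fermentor changed no other call. On scan 2 alone HXT1 was not called at the first step (-0.83), at the third (0.49), for methanol against logarithmic growth (-0.59) or for the labelled peak against starved cells (0.74); fewer samples entered that fit. HXT1 at the second step was called with quantile normalization (0.39) and with flagged spots kept (0.31, chosen after seeing the data), and ran from 0.11 to 0.34 without single arrays. On scan 1 alone, untested, GTH1 at the third step (-3.90), HXT1 at the first (-1.10) and HXT1 for methanol against logarithmic growth (-0.87) moved by more than limma's moderated SD between samples. The causes of the other changes were not tested. Counts of called tags fell by over 1.5 times with no scan block, to 1853 from 3362 at the first step, 1319 from 3102 at the second, 2354 from 3690 at the third, 2410 from 3788 for methanol against logarithmic growth, 772 from 2553 for the labelled peak against it, 2342 from 3582 for the end of fermentation against it and 1825 from 3370 for the labelled peak against starved cells. On scan 2 alone they were 1945, 1546, 451 and 2120 for the first step, the second, the labelled peak against logarithmic growth and against starved cells, and 1196 for the labelled peak against logarithmic growth with only those arrays. The fit with contrasts.fit was also chosen after seeing the data. HXT1 could not be fitted in the authors' values.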

Other observations

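The tags next to the transporters by number, where on the array, differed from them in at least part of their course. PAS_chr1-3_0010, numbered just before GTH1, was not called at the first step (-0.23 ± 0.13, SE; limma adjusted p = 0.137) and fell by 0.90 on the log2 scale at the third (SE 0.12; limma adjusted p = 3.02e-05), at a low signal with phase means from -8.16 to -7.12. The tag numbered just after GTH1 was not on the array. PAS_chr1-4_0569, just before HXT1, rose by 0.53 ± 0.21 (SE; limma adjusted p = 0.0391) at the first step and fell by 0.59 at the last (SE 0.21; limma adjusted p = 0.0210), opposite to HXT1 both times. PAS_chr1-4_0571, just after HXT1, fell by 1.17 at the first step (SE 0.11; limma adjusted p = 2.79e-06) and rose by 1.67 ± 0.11 (SE; limma adjusted p = 9.31e-08) at the last, as HXT1 did, but was lower in the labelled rhHSA peak than in logarithmic growth by -1.38 ± 0.11 (SE; limma adjusted p = 4.01e-06), where HXT1 was not called.

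Of the 2707 tags searched for courses like those of the transporters, 126 (4.65%) correlated with GTH1 at r of at least 0.9, and 69 (2.55%) did so with HXT1, as a description across 14 and 13 samples.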
